A study of Mus musculus with 18 samples.

Results

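Ezh2 is the catalytic subunit of Polycomb repressive complex PRC2, which places the silencing mark H3K27me3 on histone H3. The Ezh2 pre-rescue arrays are 2 arrays of fibroblasts that carried an exogenous Ezh2 before their own Ezh2 was deleted, and they were set against 2 arrays of cells labelled Ezh2 -/-, which are called Ezh2 null here. These 4 arrays were chosen by their titles among the 10 arrays of a rescue experiment, out of 18 arrays in the series. The comparison addressed whether Ezh2 that is present before deletion prevents the changes in transcription that follow its loss.

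The cells were immortalized mouse embryonic fibroblasts (iMEFs), isolated from embryos, transformed with a c-Myc retrovirus and carrying Ezh2 flox/Δ;ROSA26-CreERT2, so that tamoxifen activates Cre and removes the remaining Ezh2 allele. The study's methods describe a single clone obtained by limiting dilution, and the labels name clone C2 for the time course and only iMEFs for the rescue arrays. In the Ezh2 pre-rescue cells a Flag-tagged Ezh2 had been delivered with the MSCVhygro retrovirus before tamoxifen. In the Ezh1 pre-rescue cells the same vector carried Flag-Ezh1, and in the Ezh2 post-rescue cells Flag-Ezh2 was added after deletion. Whether the Ezh2 null cells carried an empty vector is not given in the sources used here, so retroviral infection and the exogenous Ezh2 cannot be told apart in this comparison. Control cells are labelled Ezh2 WT. A separate time course of 8 arrays followed clone C2 on vehicle and at 5, 18 and 32 days of tamoxifen. Each group had 2 arrays. The study calls the replicates of the time course, control, null and pre-rescue groups biological, and for the Ezh2 post-rescue cells this is not given in the sources used here. The labels name no separate cultures, so the p-values reflect the spread from array to array and no more.

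As background, mammalian PRC2 acts mainly at CpG-rich promoters of developmental regulators, such as Hox genes and other transcription factors, whose transcription it keeps off in the wrong tissue. The related subunit Ezh1 has weaker methyltransferase activity. Fibroblasts themselves are known for their output of extracellular matrix, including collagens, elastin and small leucine-rich proteoglycans.

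The deposited values are log2 intensities, on which a difference of 1 is a 2-fold change. They were tested for 18820 genes with limma over the 10 rescue arrays, with the replicate number as a block. A gene is called at a Benjamini-Hochberg adjusted p under 0.05 and at least a 2-fold change, while "higher" and "lower" for members of gene lists stand for the same adjusted p without a minimum fold. Median intensity lay between 6.16 and 6.27 on the 10 rescue arrays. The 2 Ezh2 null arrays differed from each other more than the 2 Ezh2 pre-rescue arrays did: the SD over genes of the difference between replicates was 0.162 in Ezh2 pre-rescue cells and 0.230 in Ezh2 null cells. Of 16 fibroblast markers, 14 lay above the array median in Ezh2 pre-rescue cells and 13 in Ezh2 null cells, led by Vim in both, whereas none of the 15 epithelial markers did in either group. Markers of the labelled cell type were thus present.

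The Ezh2 transcript was high on both Ezh2 pre-rescue arrays, at 12.26 and 11.84, against 10.46 and 10.48 on the Ezh2 null arrays. The groups did not overlap, and the difference was 1.58 ± 0.17 (log2, SE, adjusted p = 0.00606, limma). Control cells read 10.36 and 10.56, on either side of the null cells, so this probe set does not check the deletion. Where its probes lie relative to the deleted exons is not given in the sources used here. Ezh2 post-rescue cells, at 12.55 and 12.12, differed from Ezh2 pre-rescue cells by -0.28 (95% confidence interval -0.69 to 0.12, adjusted p = 0.524). Ezh1 stood at 9.84 and 9.65 in Ezh2 pre-rescue cells, against 9.51 and 9.19 in Ezh2 null cells, and its change of 0.40 did not pass (adjusted p = 0.177). The difference in Ezh2 between Ezh2 pre-rescue and control cells was 1.59 and did not pass (adjusted p = 0.183).

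Relative to Ezh2 null cells, the genes with the largest decreases in Ezh2 pre-rescue cells included the transcription factor genes Foxp2, Plag1, Rorb and Hoxb9, and those with the largest increases included the matrix genes Fmod, Eln, Edil3 and Prelp. In total, 98 genes were called higher (0.521% of 18820) and 128 were called lower (0.68%). At any fold, 593 genes were higher (3.15%) and 751 were lower (3.99%). The 4 arrays separated all 226 called genes without overlap, and both within-replicate differences had the same sign for each of them. The genes were called on these same arrays, so both counts largely follow from the call and add no support. The share over all genes was not counted. At least 2-fold differences in both replicates were found for 128 of the 226. Of the 118 genes selected by the rule for named genes that passed against null, 28 no longer passed when only the 4 arrays compared were fitted (adjusted p 0.0503 to 0.155), among them Trp53inp1, Sorbs2, Sox6, Hmgcs1, Birc5, Polr1b, Sesn1 and Acta2. The counts depended on single arrays. Without Ezh2 pre-rescue replicate 1, 20 genes were called higher and 38 lower. Without Ezh2 pre-rescue replicate 2 the calls were 2 and 11, whereas without Ezh2 null replicate 1 they were 210 and 224, and without Ezh2 null replicate 2 they were 32 and 102.

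**Figure D1:**
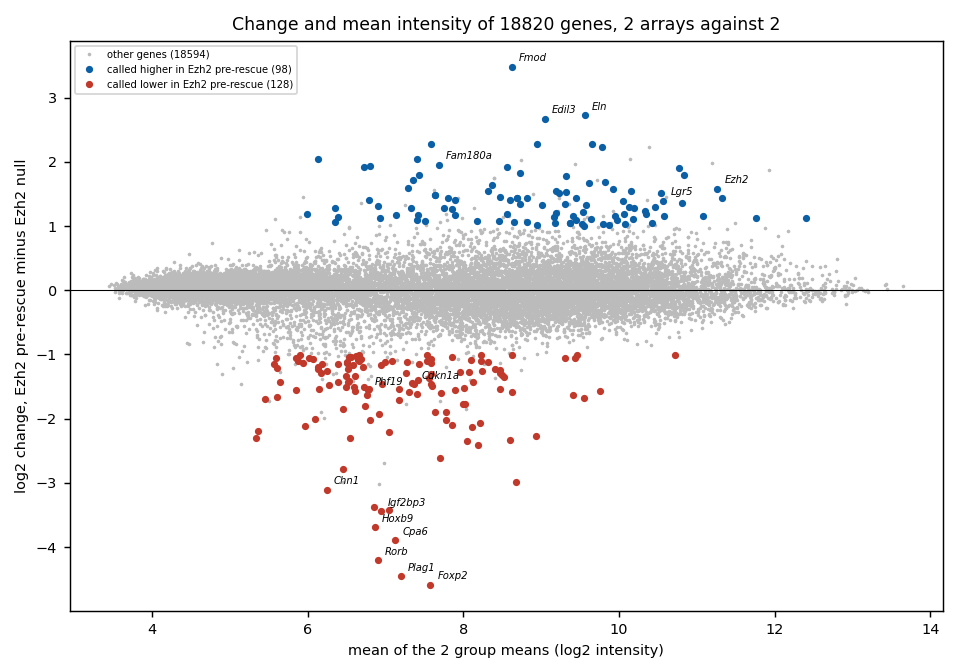
Each point is 1 of 18820 genes, with the mean of the Ezh2 pre-rescue and Ezh2 null group means (log2 intensity) on the x axis and the log2 change, Ezh2 pre-rescue minus Ezh2 null, on the y axis. The 98 genes called higher are blue and the 128 called lower are red, with Foxp2 (-4.59) and Plag1 (-4.45) lowest and Fmod (3.48) highest among the called genes.

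Foxp2, a forkhead transcription factor, had the largest change of the genes called lower. It read 5.31 and 5.25 on the Ezh2 pre-rescue arrays, against 9.83 and 9.91 on the Ezh2 null arrays. Both pre-rescue arrays lay below the array median and both null arrays far above it. The change was -4.59 ± 0.66 (log2, SE, adjusted p = 0.0133). The pre-rescue values were close to the mean of the epithelial markers on the same arrays, 5.37 and 5.44. No measure of background was used here, so no fold is given for Foxp2 or other genes near that level. Plag1, a zinc finger factor first known as an oncogene of salivary gland tumours, read 4.84 and 5.11 in Ezh2 pre-rescue cells, against 9.54 and 9.31 in Ezh2 null cells. Its replicates were tight, with a change of -4.45 ± 0.25 (adjusted p = 0.000729). Rorb, an orphan nuclear receptor related to the retinoic acid receptors, read 4.83 and 4.78 against 8.94 and 9.06 in the null cells, a change of -4.20 ± 0.35 (adjusted p = 0.00284). For all 3 genes the groups were separated by more than 4 log2 units.

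The carboxypeptidase gene Cpa6 read 5.14 and 5.22 in Ezh2 pre-rescue cells, against 9.25 and 8.90 in Ezh2 null cells, a change of -3.89 ± 0.35 (adjusted p = 0.00332). Hoxb9, a posterior Hox gene, read 5.43 and 4.60 against 7.99 and 9.42 in the null cells, with more spread in both groups, and changed by -3.70 ± 0.49 (adjusted p = 0.0108). Igf2bp3, an oncofetal RNA-binding protein that binds Igf2 mRNA, read 5.20 and 5.23 against 8.14 and 9.18 (change -3.45 ± 0.28, adjusted p = 0.00284). The lowest null array thus stood well above the highest pre-rescue array for each of these genes. Other large decreases were those of Rnf128, an E3 ubiquitin ligase (-3.43), the protocadherin gene Pcdh9 (-3.37), Chn1, a Rac GTPase-activating protein (-3.11), and the membrane protein gene Itm2a (-2.79).

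Cdk6, a cyclin D-dependent kinase that drives entry into S phase, read 7.32 and 7.03 in Ezh2 pre-rescue cells, against 9.78 and 10.55 in Ezh2 null cells (change -2.99 ± 0.43, adjusted p = 0.0139). Rragd, a Rag GTPase that recruits mTORC1 to lysosomes, read 6.30 and 6.49 against 9.07 and 8.93 (change -2.61 ± 0.19, adjusted p = 0.00209). Prkaa2, a catalytic subunit of the energy sensor AMPK, read 7.23 and 6.74 against 9.26 and 9.54 (change -2.42 ± 0.16, adjusted p = 0.00132). In each case the pre-rescue arrays lay below both null arrays. The growth factor Igf1 read 6.84 and 6.91 in Ezh2 pre-rescue cells, against 9.87 and 8.58 in Ezh2 null cells, where the replicates were more than 1 log2 unit apart (change -2.35 ± 0.37, adjusted p = 0.0179). Cdkn1a, the p21 inhibitor of cyclin-dependent kinases, was also lower, at 6.64 and 6.63 against 8.25 and 7.95 (change -1.46 ± 0.18, adjusted p = 0.00799). Cdkn2a, the classic Polycomb-repressed p16 and p19Arf locus, read 8.59 and 8.51 in Ezh2 pre-rescue cells, against 8.40 and 8.50 in Ezh2 null cells, and its change of 0.10 (95% confidence interval -0.09 to 0.29) did not pass (adjusted p = 0.523). Of 10 cell cycle inhibitor genes measured, 1 was lower, Cdkn1a, and 1 was higher, Cdkn2b, which encodes p15 (0.58, adjusted p = 0.0479, which was lost at 0.0562 with only the 4 arrays compared). Over all genes 3.99% were lower and 3.15% higher, and counts of 1 member are too few to compare with these shares.

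Among the genes called higher, Fmod, which encodes the collagen-binding proteoglycan fibromodulin, had the largest change. It read 10.19 and 10.54 in Ezh2 pre-rescue cells, against 7.29 and 6.47 in Ezh2 null cells, a change of 3.48 ± 0.30 (adjusted p = 0.00284), or 11.2-fold. Eln, which encodes elastin, read 10.66 and 11.19 against 8.60 and 7.80 in the null cells (change 2.73 ± 0.33, adjusted p = 0.00799). Edil3, an integrin-binding matrix protein, read 10.01 and 10.75 against 8.25 and 7.17 (change 2.67 ± 0.42, adjusted p = 0.0176). For all 3 genes Ezh2 null replicate 2 lay below Ezh2 null replicate 1, and both pre-rescue arrays lay above both. Fam180a had the smallest standard error of the 15 genes with the largest increases, at 8.41 and 8.92 in Ezh2 pre-rescue cells, against 6.57 and 6.84 in Ezh2 null cells (change 1.96 ± 0.13, adjusted p = 0.00132). Prelp, another leucine-rich proteoglycan, changed by 2.28 ± 0.45 (adjusted p = 0.0285). Dhrs3, which reduces retinaldehyde to retinol, changed by 2.28 ± 0.34 (adjusted p = 0.0151).

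Several of the other large increases were close to the threshold. Trp53inp1, a p53-induced regulator of stress responses, read 10.49 and 11.31 in Ezh2 pre-rescue cells, against 9.51 and 7.82 in Ezh2 null cells, and the differences within replicates 1 and 2 were 0.97 and 3.49 (change 2.23 ± 0.52, adjusted p = 0.0455). Null replicate 2 was the lowest array here. It was also the lowest for Srpx2 and Sorbs2, an adaptor of the actin cytoskeleton, at 10.57 and 9.06 and 10.67 and 9.20 on the null arrays, against pre-rescue values of 11.62 and 11.83 for Srpx2 and 11.58 and 11.87 for Sorbs2. Padi2 (a protein arginine deiminase), Colgalt2 (a collagen galactosyltransferase), Panx3 (a pannexin channel of skeletal tissue) and Rasgrp3 (an activator of Ras) changed by 2.28, 1.93, 1.91 and 1.83. Some other genes with large but uneven differences were not called: Aldh1a1, a retinaldehyde dehydrogenase, read 5.18 and 5.63 in Ezh2 pre-rescue cells, against 9.95 and 6.90 in Ezh2 null cells (change -3.02 ± 1.09, adjusted p = 0.141), and the glypican gene Gpc3 read 5.13 and 6.15 against 9.78 and 6.88 (change -2.69 ± 0.90, adjusted p = 0.119). For both genes null replicate 1 was the high array, and they were chosen after their values were seen.

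**Figure D2:**
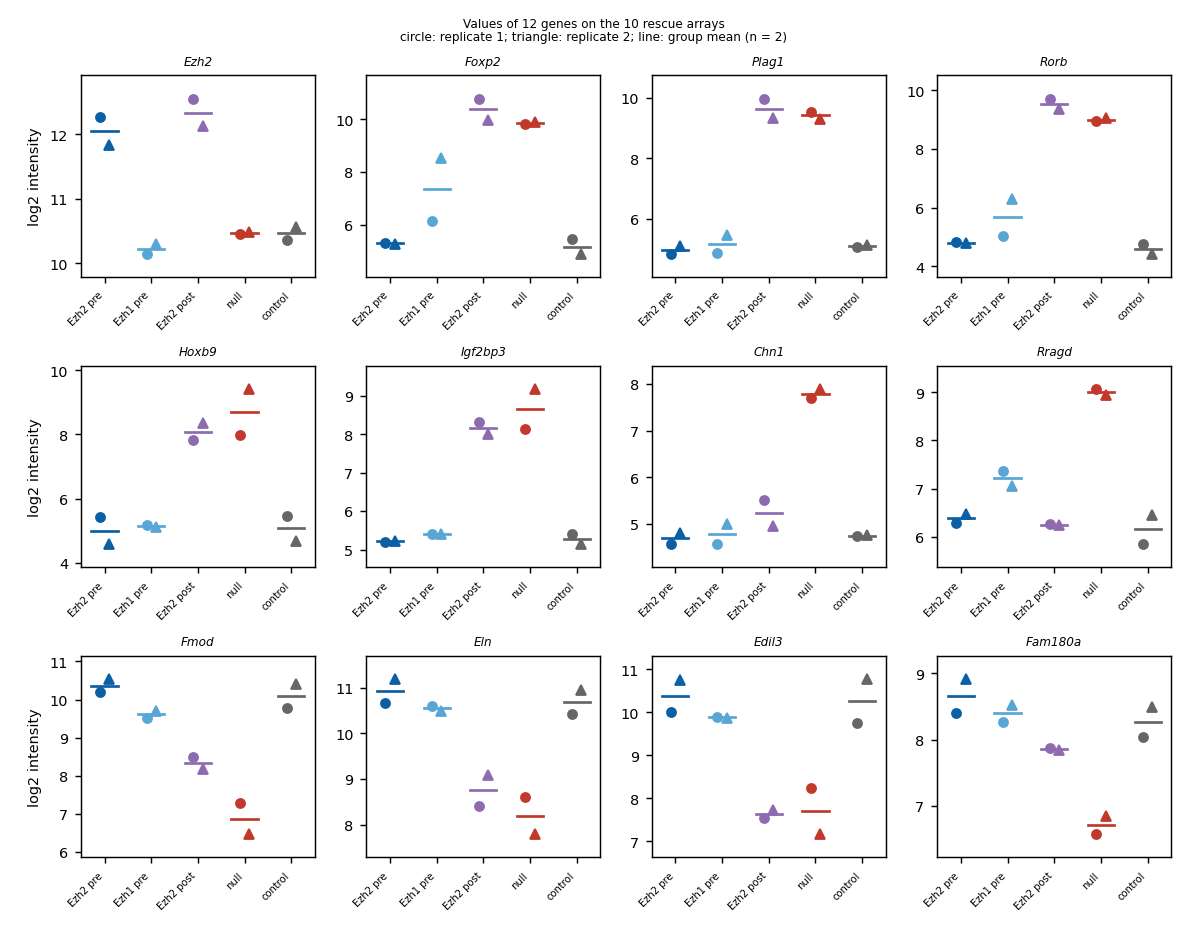
Log2 intensity (y axis) of 12 genes on the 10 rescue arrays, by group (Ezh2 pre-rescue, Ezh1 pre-rescue, Ezh2 post-rescue, Ezh2 null and control), with a circle for replicate 1, a triangle for replicate 2 and a line for the group mean. Foxp2, Plag1 and Rorb stay at or below 5.31 on the Ezh2 pre-rescue arrays, against 8.94 or more on the Ezh2 null arrays, and Fmod is at 10.19 or more, against 7.29 or less.

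The start-site windows of the called genes with the largest changes are shown because promoter CpG content is the DNA feature linked to PRC2 targeting in mammals. They are the first pair in each direction for which the RefSeq promoter table of build GRCm38.p6 held a window, and each runs from 250 bases before to 50 after the start, 5′ to 3′ on the gene's strand. Capitals mark the dinucleotide CG, which reads the same on both strands. The windows are chr19:19111147-19111446 (minus strand) for Rorb, chr6:49214905-49215204 (minus strand) for Igf2bp3, chr1:134037004-134037303 (plus strand) for Fmod and chr1:133921352-133921651 (minus strand) for Prelp.
Rorb: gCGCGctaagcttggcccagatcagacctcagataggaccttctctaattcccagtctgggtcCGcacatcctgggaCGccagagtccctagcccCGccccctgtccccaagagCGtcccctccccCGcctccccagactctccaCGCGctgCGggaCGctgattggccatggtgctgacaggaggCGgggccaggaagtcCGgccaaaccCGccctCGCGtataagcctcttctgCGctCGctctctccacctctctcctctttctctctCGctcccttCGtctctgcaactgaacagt
Igf2bp3: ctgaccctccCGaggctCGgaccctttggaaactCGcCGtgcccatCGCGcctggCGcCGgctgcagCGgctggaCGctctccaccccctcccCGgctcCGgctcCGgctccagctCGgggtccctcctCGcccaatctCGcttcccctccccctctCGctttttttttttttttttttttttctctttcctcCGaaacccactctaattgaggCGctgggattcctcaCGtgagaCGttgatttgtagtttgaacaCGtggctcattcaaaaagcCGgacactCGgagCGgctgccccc
Fmod: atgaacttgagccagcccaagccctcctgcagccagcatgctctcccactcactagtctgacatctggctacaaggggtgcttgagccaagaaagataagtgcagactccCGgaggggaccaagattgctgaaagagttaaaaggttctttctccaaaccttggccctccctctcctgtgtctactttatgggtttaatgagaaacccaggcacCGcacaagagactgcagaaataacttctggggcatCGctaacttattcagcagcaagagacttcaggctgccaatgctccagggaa
Prelp: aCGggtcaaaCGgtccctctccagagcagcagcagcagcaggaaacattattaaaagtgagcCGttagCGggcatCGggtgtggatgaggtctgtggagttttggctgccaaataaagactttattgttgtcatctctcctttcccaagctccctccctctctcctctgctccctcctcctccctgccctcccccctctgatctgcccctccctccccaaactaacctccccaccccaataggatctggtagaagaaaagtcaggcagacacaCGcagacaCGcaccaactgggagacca
The windows held 20 CG for Rorb, 25 for Igf2bp3, 3 for Fmod and 7 for Prelp. They were picked by the size of the change and do not describe the other called genes. CG occurred at least once in 95.9% of the 14739 windows held for the genes tested, with a median of 17. Where a gene had several windows, the one with the most CG stood for it, so these counts lean high. A comparison over the full sets was void, because windows were held for only 77.3% of the genes called lower and 73.5% of those called higher, and nothing is drawn from these 4 windows.

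Of the called genes, 8 pairs were next to each other on a chromosome among protein-coding genes of the same annotation, and 7 of the pairs moved in the same direction. Plag1 and Chchd7, neighbours on chromosome 4, were both lower, and Chchd7, a mitochondrial intermembrane space protein, read 7.55 and 7.31 in Ezh2 pre-rescue cells, against 9.92 and 9.60 in Ezh2 null cells (change -2.33 ± 0.11, adjusted p = 0.000347). Hoxb9 and Hoxb13, and Hoxb5 and Hoxb6, were pairs of the HoxB cluster on chromosome 11. The pair Tmem176a (-1.45) and Tmem176b (-1.57) and the NKG2D ligand genes Raet1e (-1.56) and H60b (-1.11) were lower together. Both pairs of higher genes encode matrix proteins: Fmod with Prelp on chromosome 1, and Edil3 with Hapln1 (1.49), a link protein of hyaluronan, on chromosome 13. The exception was Ada (-1.01) with Ccn5 (1.55) on chromosome 2. These pairs were found after the values were seen. How often neighbours moved in the same direction over all genes was not counted, so nothing is drawn from the number of pairs.

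MicroRNA genes were outside the rule for named genes, and 3 of them, named here after their values were seen, were among the calls. Mir140, which lies in the gene Wwp2 and is known for its role in cartilage, read 6.99 and 7.33 in Ezh2 pre-rescue cells, against 5.13 and 5.10 in Ezh2 null cells (change 2.05 ± 0.18, adjusted p = 0.00284). Its host Wwp2, an E3 ubiquitin ligase, was also higher, at 10.70 and 10.97 against 9.70 and 9.41 (change 1.28 ± 0.14, adjusted p = 0.00588). Mir145a was higher by 1.48, and Mir18, of the Myc-regulated miR-17-92 cluster, changed by -1.04 (adjusted p = 0.00892). The arrays were labelled from whole transcripts, so that these values do not separate a mature miRNA from its precursor. The mature RefSeq sequences are printed to identify the 2 loci, at chr8:107551288-107551308 (plus strand) and chr14:115043867-115043889 (plus strand) in GRCm38.p6, with the seed, bases 2 to 8, in capitals.
mmu-miR-140-3p: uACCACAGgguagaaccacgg
mmu-miR-18a-5p: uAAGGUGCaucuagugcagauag
The seeds differ, so the pair does not belong to 1 seed family.

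Most developmental regulators did not pass the test, and neither did most genes: over all genes 3.99% were lower and 3.15% higher. Of 36 Hox genes measured, 6 were lower and 3 were higher, both larger shares than over all genes. Their median change was 0.02, against 0.04 over all genes. The lower members were Hoxb5, Hoxb6, Hoxb9, Hoxb13, Hoxa10 and Hoxd10. Hoxb13 read 5.51 and 5.55 in Ezh2 pre-rescue cells, against 7.47 and 7.30 in Ezh2 null cells, and had a small error (change -1.85 ± 0.08, adjusted p = 0.000333). Hoxa10 changed by -1.54 and Hoxb5 by -1.43. Hoxc5, 1 of the 3 higher members, read 10.12 and 9.86 against 8.69 and 8.97 in the null cells (change 1.16 ± 0.13, adjusted p = 0.00606). Of 26 forkhead genes, 3 were lower and 1 higher, and besides Foxp2 the lower ones were the pioneer factor Foxa1 (-0.92) and Foxf1 (-1.33). Of 77 other homeobox and paired genes, 3 were lower and 0 higher: Dlx4 (-0.73), Msx1 (-0.75) and Pax9 (-0.68), a share close to the 3.99% of all genes that were lower. At an unadjusted p under 0.05, 4439 of all genes passed (23.6%), so the adjusted counts are the stricter ones.

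In the list of 80 T-box, Sox, Gata, Ebf, bHLH and nuclear receptor genes, 8 were lower and 3 higher, against 3.99% and 3.15% of all genes. Ebf2, a factor of mesenchymal and brown fat precursors, read 5.81 and 5.76 in Ezh2 pre-rescue cells, against 7.75 and 7.86 in Ezh2 null cells (change -2.02 ± 0.18, adjusted p = 0.00284). Gata3, known from T cell and mammary luminal development, changed by -1.17. Runx1, better known for blood formation, was higher, by 0.75, as was the cartilage factor Sox6, at 9.29 and 9.75 against 8.26 and 6.94 in the null cells (change 1.92 ± 0.39, adjusted p = 0.0312). Of 11 oncofetal regulators 3 were lower, Plag1, Igf2bp3 and Igf2bp1 (-1.01), and 0 were higher. The imprinted gene Plagl1, a relative of Plag1, changed by -1.64 (adjusted p = 0.0395).

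Among the PRC2 genes other than Ezh2, Phf19 had the largest change of those that passed. Phf19, an accessory subunit that binds H3K36 methylation, read 6.03 and 5.95 in Ezh2 pre-rescue cells, against 7.56 and 7.54 in Ezh2 null cells (change -1.56 ± 0.09, adjusted p = 0.000702). Its 4 arrays were tight within each group. Eed, a core subunit, was lower by a smaller amount (-0.44, adjusted p = 0.0337), and besides Ezh2 none of the 13 PRC2 genes measured was higher. Of 20 PRC1 genes 4 were lower and 0 higher (over all genes 3.99% were lower and 3.15% higher), with a median of -0.21. They were the chromodomain subunit Cbx2 (-0.75), L3mbtl2 (-0.47), Yaf2 (-0.44) and Rybp (-0.44). With only the 4 arrays compared, Eed (adjusted p = 0.0865), L3mbtl2 (0.0826), Yaf2 (0.0936) and Rybp (0.0866) no longer passed. The DNA methyltransferase gene Dnmt3b was lower as well (-0.61, adjusted p = 0.0105).

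The matrix lists contained a larger share of higher genes than the 3.15% over all genes. Of 39 genes for small leucine-rich proteoglycans and other matrix proteins, 15 were higher and 2 were lower, with a median change of 0.47. Besides Fmod and Eln, Fbln5, which organizes elastic fibres, changed by 1.36 ± 0.17 (adjusted p = 0.00892). The 2 lower genes were the basement membrane and elastic fibre gene Fbln1 (-1.58) and the lysyl oxidase Loxl4 (-1.04). Of 28 collagen genes 9 were higher and 0 lower (median 0.19), including Col5a2 (1.05), Col1a2 (0.82), Col6a1 (0.81) and Col6a2 (0.62). Of 24 cartilage, tendon and bone genes 8 were higher and 0 lower (median 0.50). The cartilage matrix gene Cnmd read 9.06 and 9.32 in Ezh2 pre-rescue cells, against 7.27 and 7.82 in Ezh2 null cells (change 1.64 ± 0.15, adjusted p = 0.00354), Ucma changed by 2.04 and Col9a1 by 1.52.

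Some fibroblast and smooth muscle markers were also higher. Of all genes, 3.15% were higher and 3.99% lower. Of the 16 fibroblast markers 4 were higher and 0 lower, and their summed intensity was 37723 and 40532 in Ezh2 pre-rescue cells, against 29038 and 24012 in Ezh2 null cells. Members of both this list and the collagen list, such as Col1a2, count in each. Of 11 smooth muscle markers 3 were higher and 0 lower, and their sum was 9110 and 10477, against 6412 and 4065 in the null cells. Acta2, the actin of contractile fibroblasts, read 12.85 and 13.06 in Ezh2 pre-rescue cells, against 12.25 and 11.43 in Ezh2 null cells (change 1.12 ± 0.27, adjusted p = 0.0472), and Pdgfrb, a receptor of mesenchymal cells, changed by 0.95. Acta2 was the brightest smooth muscle marker in both groups, so it weighed most in their sum. Only 3 of the 11 lay above the array median in each group. With only the 4 arrays compared, Acta2 (adjusted p = 0.0588, limma), the smooth muscle marker Cnn1 (0.0674) and the fibroblast marker Col3a1 (0.0542) no longer passed. Fewer cells of a type and less RNA per cell cannot be told apart in bulk RNA. The part of these markers in the matrix result was not tested.

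Of 20 genes of cholesterol synthesis and its regulation 10 were higher and 0 lower, against 3.15% and 3.99% of all genes. All 20 had a change above 0, and the median was 0.51. Mvd, which makes isopentenyl diphosphate from mevalonate diphosphate, read 9.20 and 9.17 in Ezh2 pre-rescue cells, against 8.10 and 8.14 in Ezh2 null cells (change 1.06 ± 0.16, adjusted p = 0.0157). Hsd17b7, of the late sterol pathway, read 11.72 and 11.70 against 10.91 and 11.01 (change 0.75 ± 0.08, adjusted p = 0.0062). Nsdhl changed by 0.70 and Hmgcs1, which makes HMG-CoA, by 0.54. Control cells, which were not part of this contrast, read 11.19 and 11.35 for Hsd17b7, between the pre-rescue and null values. Set against control cells, the Ezh2 pre-rescue cells also had all 20 differences above 0, between 0.02 and 0.74 (median 0.22), and 0 members passed.

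Genes of growth and biosynthesis had small, mostly negative changes. Over all genes 3.99% were lower and 3.15% higher. Of 35 proliferation genes 4 were lower and 0 higher, and all 35 changes lay between -0.91 and -0.09, with a median of -0.43. They were the replication licensing factor Cdt1, at 8.31 and 8.06 in Ezh2 pre-rescue cells, against 9.34 and 8.86 in Ezh2 null cells (change -0.91 ± 0.09, adjusted p = 0.00464), and E2f2 (-0.61), Birc5 (-0.72) and Gins1 (-0.87). Of 31 Myc target and ribosome biogenesis genes 7 were lower and 0 higher (median -0.36), with Odc1, the first enzyme of polyamine synthesis, changed by -0.72 and Polr1b, of RNA polymerase I, by -0.54. Of 21 integrated stress response genes 6 were lower and 0 higher (median -0.31), including Vldlr (-1.28) and Nupr1 (-0.65). Set against control cells, the proliferation genes also lay lower in Ezh2 pre-rescue cells, between -0.57 and -0.13 (median -0.29). The Myc target and ribosome genes lay between -0.47 and -0.02 (median -0.18), and 0 members of either list passed there. Growth rate was not measured, and its part in the other results was not tested.

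Signalling and metabolic lists were mixed, and over all genes 3.15% were higher and 3.99% lower. Counts of 1 or 2 members are too few to compare with these shares, and no list was tested against them. Of 27 glycolysis and hypoxia genes 1 was higher, Hk1 (0.76), and 2 were lower, the phosphofructokinase gene Pfkp (-1.37) and the angiogenic factor Vegfa (-0.65). Of 25 p53 targets 2 were higher, Trp53inp1 and Sesn1 (0.63), and 1 was lower, Cdkn1a. Of 33 cadherins and protocadherins 2 were higher, Fat4 (1.04) and Cdh2 (0.62), and 1 was lower, Pcdh9. Of 14 IGF pathway genes 1 was higher and 1, Igf1, was lower, and of 18 retinoid genes 1, Dhrs3, was higher. Of 46 Wnt pathway genes 5 were higher and 4 lower. The receptor gene Fzd9 changed by 1.34 ± 0.12 (adjusted p = 0.00348), and Lgr5, a receptor for R-spondins, changed by 1.39 while the R-spondin gene Rspo3 changed by -0.80. The secreted Wnt antagonists went both ways, Frzb by 1.79 and Wif1 by -1.06. Of 39 TGF beta and BMP genes 2 were higher and 2 lower. The lower ones were both receptors, Tgfbr1, at 7.79 and 7.79 against 8.93 and 9.10 in the null cells (change -1.22 ± 0.10, adjusted p = 0.00284), and Bmpr1b (-1.50). Of 53 axon guidance genes 5 were lower and 2 higher. Epha3, an ephrin receptor, changed by -2.13, and the ephrin-A ligand genes Efna3 and Efna2 by -1.71 and -0.87.

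Counts in the immune lists were small as well, to be read beside the 3.99% of all genes that were lower and 3.15% that were higher. Of 36 interferon response genes 3 were lower and 0 higher, and the median was -0.09. Rsad2 (viperin), an antiviral enzyme, read 6.41 and 6.60 in Ezh2 pre-rescue cells, against 8.36 and 7.83 in Ezh2 null cells (change -1.59 ± 0.21, adjusted p = 0.0111), with Gbp2 (-0.82) and Cmpk2 (-0.79) the other lower members. Of 15 antigen presentation genes 2 were lower and 1 was higher. The lower ones were Raet1e and the class I gene H2-K1 (-1.28, adjusted p = 0.0175), and H2-K1 shares sequence with other class I genes. The higher one was Tapbp, a chaperone of peptide loading (0.41, adjusted p = 0.0462, and 0.13 with only the 4 arrays compared). Of 24 chemokine and inflammatory genes 3 were lower and 0 higher, among them Ccl2 (-1.35) and Ccl20 (-0.85). Pluripotency, adipocyte, neuronal, epithelial and blood cell markers and glypicans and syndecans, 81 genes in all, had 0 members at an adjusted p under 0.05 (limma). They were put together for that reason, so the count of 0 follows from the choice. At an unadjusted p under 0.05, 7 of them passed, against 23.6% of all genes. Of 15 skeletal muscle markers 1 was lower, Tnnt2 (-0.68), and of 11 endothelial markers 1 was lower, Egfl7 (-0.53). Both were lost with only the 4 arrays compared (adjusted p = 0.0663 and 0.0536).

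**Figure D3:**
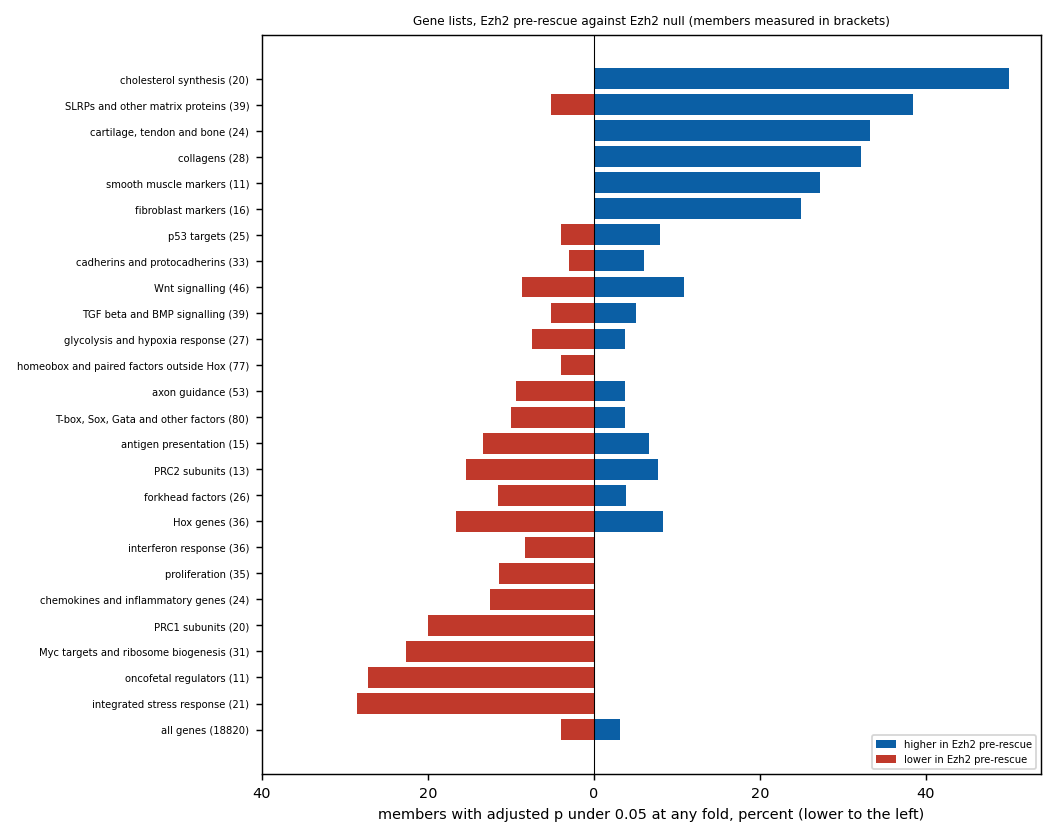
Share of the measured members (percent, x axis) of each gene list with at least 10 measured and 3 passing members that were higher (blue, right) or lower (red, left) in Ezh2 pre-rescue than in Ezh2 null cells at adjusted p under 0.05 and any fold, with all 18820 genes at the bottom. Cholesterol synthesis has 10 of 20 members higher and matrix lists follow, against 3.15% over all genes.

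The called genes were then followed in the separate time course, whose 8 arrays share no sample with the rescue arrays. At day 5 of tamoxifen the 128 genes called lower in Ezh2 pre-rescue cells had a median change of 0.12 from vehicle, with 40 higher and 11 lower, against 11% and 5.72% of all genes. At day 18 the median was 1.49, with 119 higher and 2 lower, against 15.2% and 10.5% of all genes. At day 32 it was 1.57, and 118 (92.2%) were higher than on vehicle, against 18.4% of all genes, while 3 were lower. For the 98 genes called higher the median was -0.04 at day 5, with 33 lower and 16 higher, against 5.72% and 11% of all genes. Their medians were -1.10 at day 18 and -1.60 at day 32, when 92 (93.9%) were lower than on vehicle, against 14.2% of all genes. For Foxp2 the vehicle arrays read 3.84 and 3.39, the day 5 arrays 3.75 and 3.90, the day 18 arrays 9.28 and 9.44 and the day 32 arrays 9.79 and 9.68. For Edil3 the vehicle arrays read 9.60 and 9.97, the day 5 arrays 9.73 and 9.62, the day 18 arrays 6.42 and 6.35 and the day 32 arrays 6.27 and 6.10. Both genes kept close to vehicle at day 5 and were far from it by day 18. Genes called at 2-fold or more in both contrasts made up 98 of the 128 (76.6%) and 20.3% of the 483 genes called higher at day 32 (2.57% of all genes), and 74 of the 98 (75.5%) and 23.7% of the 312 called lower (1.66%).

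Other called genes took another course than Foxp2 and Edil3. Of the 128 genes called lower, 40 were already higher at day 5, 13 of them at least 2-fold. Igf1 and Rragd were above vehicle by that day, with 7.96 and 8.04 for Igf1, against 5.37 and 5.69 on vehicle, and 7.45 and 7.29 for Rragd, against 5.50 and 5.84. Of the 226 called genes, 16 had no change in the opposite direction that passed at day 32. Among them, named after their values were seen, were Lgr5 (day 32 change -0.20, adjusted p = 0.314), H2-K1 (-0.03, 0.837) and Ccl2 (0.09, 0.468). Lower both in Ezh2 pre-rescue cells and at day 32 were 3 genes: Hmcn1 (-1.19, adjusted p = 3.29e-05), Rsad2 (-0.67 ± 0.11, adjusted p = 0.00132) and Fxyd5 (-0.49, adjusted p = 0.0133). Ezh2 was the 1 gene higher in both, by 0.38 at day 32 (adjusted p = 0.00681). Over the interferon list as a whole, 34 of 36 genes were lower at day 32 and 1 was higher (median -1.43), whereas the same list had a median of -0.09 between Ezh2 pre-rescue and Ezh2 null cells, and the difference between the 2 experiments was not tested. Matrix, cholesterol and proliferation lists had medians of the opposite sign in the time course. At day 32, 27 of 39 matrix genes (median -0.39) and 19 of 20 cholesterol genes (median -0.69) were lower than on vehicle, and 35 of 35 proliferation genes (median 0.88) were higher.

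**Figure D4:**
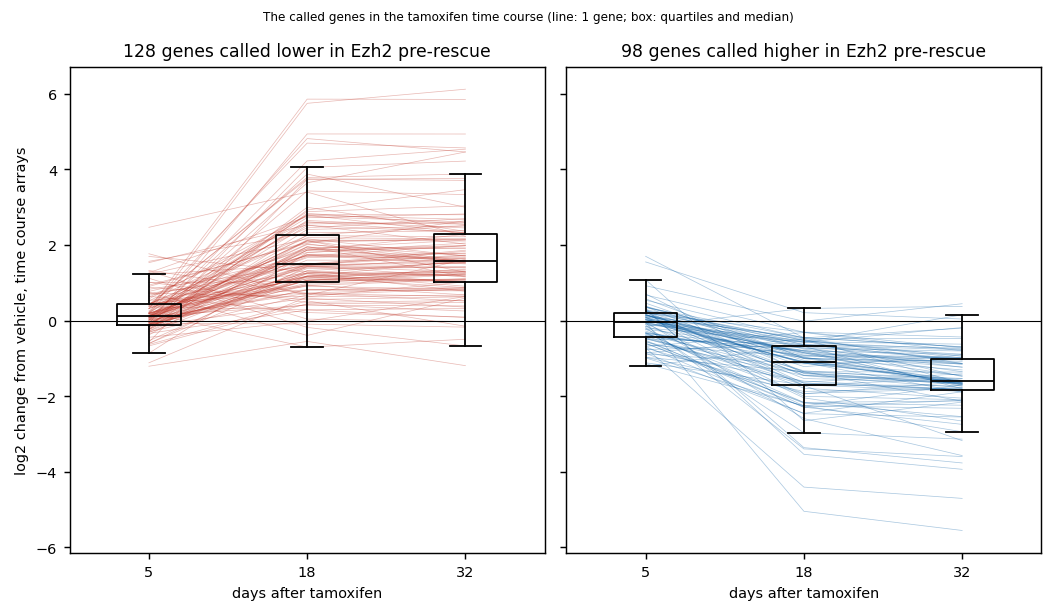
Log2 change from vehicle (y axis) at 5, 18 and 32 days of tamoxifen (x axis) of the 128 genes called lower (left, red) and the 98 called higher (right, blue) in Ezh2 pre-rescue against Ezh2 null cells. Each line is 1 gene and boxes give the median and quartiles, with medians of 0.12, 1.49 and 1.57 on the left and -0.04, -1.10 and -1.60 on the right.

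The next comparison asked where Ezh2 pre-rescue cells stood among the other groups of the rescue experiment. The Ezh2 pre-rescue arrays were set against the other 3 groups. These contrasts share the Ezh2 pre-rescue arrays with the main one, so their values are given side by side. Against control cells 0 genes were called by limma in either direction, although 1925 genes (10.2%) had an unadjusted p under 0.05. The count rested on control replicate 2, without which 113 genes were called higher and 25 lower in Ezh2 pre-rescue cells, and the control arrays differed from each other by an SD of 0.247. The 128 genes called lower against null had a median difference of -0.04 from control (quartiles -0.31 and 0.14), and the 98 called higher had one of 0.32 (quartiles 0.13 and 0.45). Foxp2, Plag1 and Rorb read 5.44 and 4.89, 5.07 and 5.11 and 4.76 and 4.42 in control cells, close to their Ezh2 pre-rescue values given above. Among the genes at least 2-fold away from control that did not pass, Slit3, a guidance ligand, read 8.60 and 8.27 in Ezh2 pre-rescue cells, against 6.56 and 7.11 in control cells (difference 1.60, adjusted p = 0.194), and it read 8.46 and 8.50 in Ezh2 null cells. Igfbp4, an IGF-binding protein, read 9.92 and 9.88 against 8.46 and 8.69 in control cells (difference 1.33, adjusted p = 0.183), Col1a1 differed by 1.26 (adjusted p = 0.194) and Ebf2 by -1.20 (adjusted p = 0.194).

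Against Ezh1 pre-rescue cells, 0 genes were called higher and 1 (0.00531%) was called lower, Ezh1 itself, at 9.84 and 9.65 in Ezh2 pre-rescue cells, against 11.68 and 11.85 in Ezh1 pre-rescue cells (difference -2.02 ± 0.16, adjusted p = 0.0362). The call of Ezh1 was lost without either Ezh2 pre-rescue replicate and without either Ezh1 pre-rescue replicate. Ezh2, delivered only to the Ezh2 pre-rescue cells of this pair, differed by 1.83 and did not pass either (adjusted p = 0.0759). The low count of calls therefore does not measure likeness of the 2 groups. At an unadjusted p under 0.05, 210 genes (1.12%) passed. Cpa6 read 5.14 and 5.22 in Ezh2 pre-rescue cells, against 7.73 and 8.74 in Ezh1 pre-rescue cells (difference -3.06, 95% confidence interval without adjustment -3.87 to -2.24, adjusted p = 0.192), and Epha3 read 7.04 and 7.05 against 8.62 and 8.94 (difference -1.73, interval -2.25 to -1.22, adjusted p = 0.312). For Foxp2 the Ezh1 pre-rescue arrays were 6.14 and 8.54, on either side of the middle between the pre-rescue and null levels (difference -2.06, interval -3.59 to -0.53). The median difference over the 128 genes called lower against null was -0.19, and over the 98 called higher it was 0.19.

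Against Ezh2 post-rescue cells, in which Ezh2 was added after deletion, 23 genes were called higher (0.122%) and 58 lower (0.308%), and with no replicate block the calls were 39 and 75. Leaving out either Ezh2 pre-rescue array left 1 gene called higher and 6 called lower. Without Ezh2 post-rescue replicate 1 the calls were 2 and 17, and without Ezh2 post-rescue replicate 2 they were 9 and 32. Foxp2 read 5.31 and 5.25 in Ezh2 pre-rescue cells, against 10.79 and 9.98 in Ezh2 post-rescue cells (difference -5.11 ± 0.66, adjusted p = 0.019). Plag1 read 4.84 and 5.11 against 9.97 and 9.32 (difference -4.68 ± 0.25, adjusted p = 0.00127), and Rorb 4.83 and 4.78 against 9.72 and 9.37 (difference -4.74 ± 0.35, adjusted p = 0.00288). The post-rescue values of these genes lay at or above the null ones. Eln read 10.66 and 11.19 against 8.42 and 9.09 (difference 2.17 ± 0.33, adjusted p = 0.0321) and Edil3 10.01 and 10.75 against 7.54 and 7.73 (difference 2.74 ± 0.42, adjusted p = 0.0345). The median difference over the 128 genes called lower against null was -0.75 and over the 98 called higher 0.75.

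For other genes called lower against null, the post-rescue values lay near the pre-rescue ones. Rragd read 6.30 and 6.49 in Ezh2 pre-rescue cells, against 6.26 and 6.25 in Ezh2 post-rescue cells (difference 0.14, 95% confidence interval -0.32 to 0.59, adjusted p = 0.823). Igf1 read 6.84 and 6.91 against 7.00 and 6.78 (difference -0.01, interval -0.88 to 0.85) and Cdkn1a 6.64 and 6.63 against 6.32 and 6.46 (difference 0.25, interval -0.16 to 0.66). For these genes both rescue groups lay below the null cells. Chn1 differed by -0.54 (interval -1.03 to -0.06, adjusted p = 0.289). A few genes lay further from post-rescue than from null cells: Ppef1, a calcium-dependent phosphatase, read 5.34 and 4.94 in Ezh2 pre-rescue cells, 8.82 and 9.10 in Ezh2 post-rescue cells and 5.80 and 6.12 in Ezh2 null cells, and the kinase gene Mapk10 read 5.12 and 5.40, 8.48 and 7.87 and 5.94 and 6.88 in the same groups. The vasopressin receptor gene Avpr1a read 8.87 and 8.72 in Ezh2 pre-rescue cells and 6.92 and 7.45 in Ezh2 post-rescue cells, but 8.73 and 8.35 in Ezh2 null cells.

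**Figure D5:**
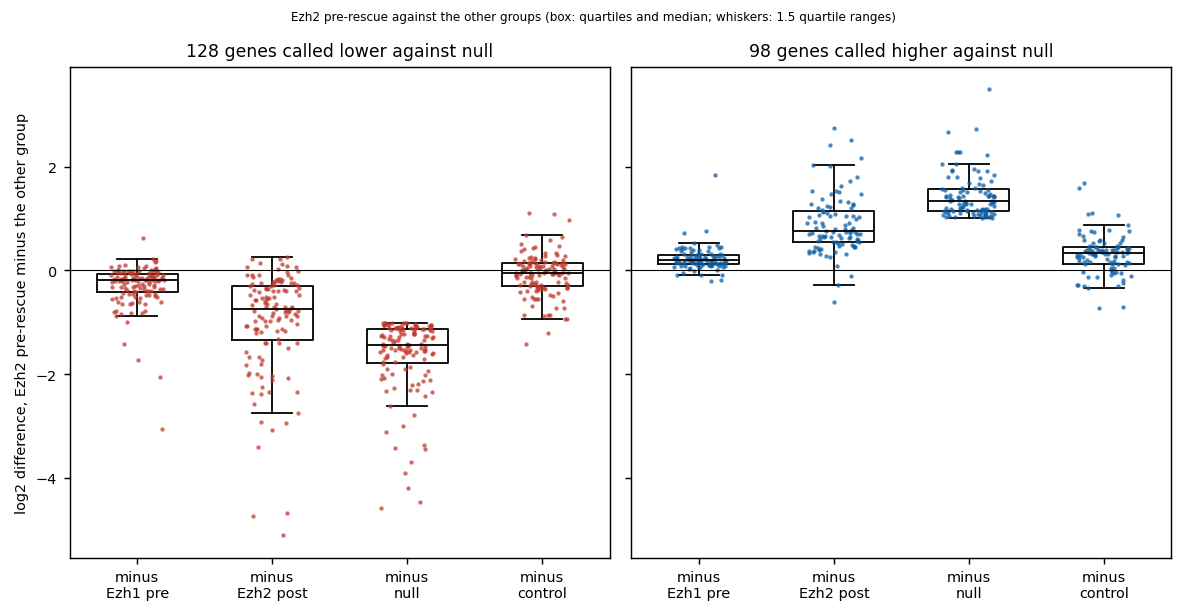
Log2 difference, Ezh2 pre-rescue minus Ezh1 pre-rescue, Ezh2 post-rescue, Ezh2 null or control cells (y axis), for the 128 genes called lower (left, red) and the 98 called higher (right, blue) against null. Points are genes and boxes give median and quartiles. All columns share the Ezh2 pre-rescue arrays, and the null column chose the genes; the medians against post-rescue cells are -0.75 and 0.75, and those against control cells -0.04 and 0.32.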

How the data were processed

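Total RNA of each sample was hybridised to 1 Affymetrix Mouse Gene 1.1 ST array. The deposited values are log2 intensities that the authors normalised with RMA (oligo). For the rescue arrays the methods state a further linear correction between first and second replicates, and whether it was applied before deposit is not given in the sources used here. Of 28440 probe sets, 21217 had 1 gene symbol, 1881 several and 5342 none. For 1386 genes with more than 1 probe set, the probe set of highest mean over the rescue arrays stood for the gene, giving 18820 genes.

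Groups came from the labels. Limma 3.58.1 in R 4.3.3 fitted the 10 rescue arrays (5 group means and the replicate number as block) and, apart, the 8 time course arrays, since the experiments were normalised separately. The p-values were adjusted by Benjamini-Hochberg over all genes. The study's rank product test was not run. The text names a fixed set (Cdkn1a, Cdkn2a, Cpa6, Ezh1, Ezh2), up to 15 genes in each direction with the largest change against null at an adjusted p under 0.05, up to 10 in each direction for the other groups, and up to 4 members of each of 38 gene lists with the smallest adjusted p. Other genes were named after their values were seen. The members and lists were chosen with earlier results of these data known. The fit was tested on simulated data first. The number of arrays limits the precision.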

Additional observations from a re-analysis of the deposited data

Results flagged for a closer look

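The genes listed here are those selected for naming whose difference between Ezh2 pre-rescue cells and another rescue group passed a test of that difference. Those set against Ezh2 post-rescue cells, apart from Fam180a at less than 2-fold, are a part of the 23 genes called higher and the 58 called lower against Ezh2 post-rescue cells, and were selected by the size of their change against null or post-rescue cells on the same 2 Ezh2 pre-rescue arrays. Values are log2 differences, each with an adjusted p under 0.05 (limma). The difference in Ezh1 from Ezh1 pre-rescue cells was -2.02. Compared with Ezh2 post-rescue cells, genes with lower levels in Ezh2 pre-rescue cells were Foxp2 (-5.11), Rorb (-4.74), Plag1 (-4.68), Ppef1 (-3.82), Epha3 (-3.40), Hoxb9 (-3.08), Aqp1 (-3.0), Igf2bp3 (-2.94), Cpa6 (-2.92), Mapk10 (-2.92), Chchd7 (-2.34) and Prkaa2 (-1.39). Those with higher levels were Edil3 (2.74), Dhrs3 (2.51), Eln (2.17), Fmod (2.03), P2ry10b (1.79), Avpr1a (1.62), Akap6 (1.5), Hectd2 (1.49), Prss23 (1.28), C1qtnf3 (1.28) and Fam180a (0.80).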

How the results depend on the processing

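Against null, 98 genes were called higher and 128 lower. Leaving out single arrays moved these counts over 2 to 210 and 11 to 224, and with 1 array in a group that array is assumed to vary like the others. The other settings stayed within 1.5 times: no replicate block gave 110 and 144, only the 4 arrays 108 and 141, and subtracted array medians, which shift the median of all genes by 0.0968, gave 139 and 127. With only the 4 arrays, 28 of 118 genes selected for naming no longer passed. Deviations of same-numbered arrays correlated between -0.43 and 0.54 over 10 pairs of groups, 6 of them negative. This did not establish a pairing, nor its absence, since the values may have been corrected between replicates before deposit. The crossed pairing and leaving out control replicate 1, both chosen after seeing the data, gave 122 and 153, and 128 and 148.

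Against control (0 and 0), the 4 arrays alone gave 15 and 3, array medians 2 higher, and single arrays left out gave 0 to 113 and 0 to 25. Against Ezh1 pre-rescue (0 and 1), no replicate block, the variance trend and an adjusted p under 0.15 each gave 1 higher. The 4 arrays alone gave 1 and 6, array medians 1 and 2, and single arrays left out 0 to 3 lower. Against post-rescue (23 and 58), genes called higher were 39 with no replicate block, 52 with array medians, 36 with quantile normalization, 35 with the variance trend and 53 at an adjusted p under 0.15. The 4 arrays alone gave 86 and 96, and single arrays left out 1 to 9 and 6 to 32. For moves other than those from fewer arrays, the cause was not tested. At day 32 the counts of 118 and 92 kept within 114 to 119 and 91 to 94. No result reversed.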
